A study of Homo sapiens with 9 samples.

Results

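The 10 genes DUSP6, DUSP4, DUSP5, SPRY2, SPRY4, SPRED1, EGR1, ETV5, PHLDA1 and IER3 were described, of 62700 genes in the Gencode v44 annotation. They are feedback regulators and immediate-early genes of the ERK pathway, taken as a readout of BCR-ABL1 signalling to ERK. A gene's value was the number of read pairs whose 5′ and 3′ ends both lay on its strand within 1000 bp of the gene body. K562, an established erythroleukemia line derived from human chronic myeloid leukaemia (CML), carries the BCR-ABL1 fusion kinase, which imatinib inhibits. Cells were treated with 1 μM imatinib or with the DMSO vehicle, both for 24 h, and each condition had 2 TIF-Seq2 libraries from biological replicates of this 1 cell line. TIF-Seq2 reads the 5′ end and the 3′ end of the same capped and polyadenylated RNA molecule, so each read pair gives a transcription start site (TSS) together with its poly(A) site (PAS).

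In the ERK pathway, receptor or oncogenic tyrosine kinases load RAS with GTP, and RAS starts the RAF, MEK and ERK kinase cascade. Active ERK enters the nucleus and switches on immediate-early genes, which need no new protein synthesis, through ternary complex factors that bind beside serum response factor (SRF). Among the induced genes are inhibitors of the same cascade. DUSP phosphatases remove the activating phosphates from ERK, and Sprouty and SPRED proteins act further upstream, at the level of RAS and RAF. BCR-ABL1 signals to RAS through adaptors such as GRB2 and GAB2.

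The libraries held 3695520 and 5135829 deposited read pairs in DMSO and 4263670 and 2263121 in imatinib, and 97.5% to 98.5% of them were assigned to a gene. Replicates differed by more than counting error, with a chi-square per degree of freedom of 10.5 in DMSO and 17.4 in imatinib. Levels are given as CPM, read pairs per 1000000 of the TMM-scaled library, and a count of 0 allows up to 3 read pairs, or 0.525 to 1.21 CPM in these libraries. Of 9 erythroid markers, which all passed the filter on low counts, 6 were higher after imatinib and 0 lower by the quasi-likelihood test of edgeR (Benjamini-Hochberg adjusted over all genes), against 8.69% higher and 6.15% lower over all genes tested. At an unadjusted p under 0.05 there were 8 higher and 0 lower, against 2081 and 1702 of 12135 over all genes tested. DESeq2 called 6 higher and 0 lower, against 692 and 734 of 13270 over all genes. The summed level of the 9 markers was 5664 to 6819 CPM in DMSO and 18100 to 18367 CPM in imatinib. The annotated bodies of HBG2 and HBE1 overlap on the same strand. Pairs could therefore count for both, so the sum holds some pairs more than once and these 2 calls are not independent. Megakaryocytic markers summed to 0.81 to 4.03 CPM, with GP9, GP1BA and PPBP at 0, and of the lymphoid and monocytic markers CD3E, MS4A1 and CD14 were at 0. The part of the erythroid shift in the values below was not tested. In bulk RNA, fewer expressing cells and less RNA per cell cannot be told apart.

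EGR1, SPRY4, ETV5, SPRED1 and IER3 fell, by 3.32-fold for IER3 and by larger factors for the other genes. PHLDA1 and DUSP5 had 1 read pair each over both imatinib libraries, SPRY2 was near the detection limit in both conditions, and DUSP6 and DUSP4 were not detected in any library. Over the whole table, 12135 genes were tested and 14.8% were called at an adjusted p under 0.05, 6.15% as lower and 8.69% as higher after imatinib. The filter kept genes above 2.28 CPM, about 10 counts, in at least 2 libraries. SPRY4, SPRED1, EGR1 and ETV5 reached that level in the DMSO libraries only and could therefore pass only if they differed, so the 5 calls among the 10 genes are a description and not evidence about the set. IER3 reached it in all 4 libraries.

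**Figure D1:**
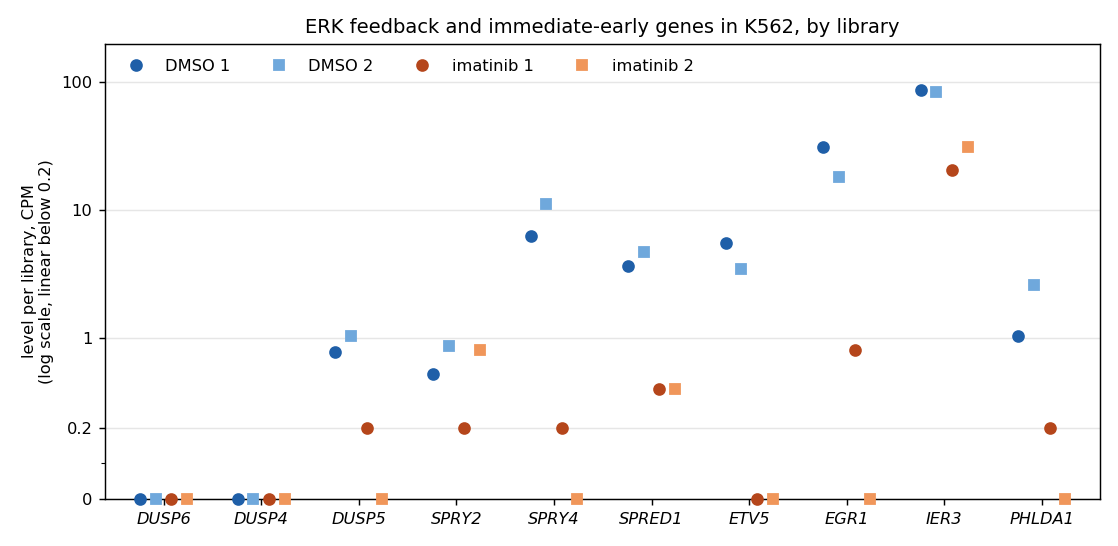
Level of each of the 10 genes in each library, in CPM on an axis that is logarithmic above 0.2 and linear below, with blue for DMSO and orange for imatinib and with circles and squares for replicates 1 and 2. For SPRY4, SPRED1, ETV5, EGR1, IER3, PHLDA1 and DUSP5 both imatinib points lie below both DMSO points, for SPRY2 they overlap, and DUSP6 and DUSP4 are at 0 throughout. The share of all genes whose points separate in this way is not given here, so the separation is a description only.

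Of the dual-specificity phosphatases, DUSP6, the cytoplasmic phosphatase of ERK, had 0 read pairs in every library. DUSP4, a nuclear phosphatase of ERK and other MAP kinases, also had 0 read pairs in every library. Neither was detectable at this depth in either condition, so no change can be measured for them. DUSP5, a nuclear ERK phosphatase, had 3 and 6 read pairs in DMSO and 1 and 0 in imatinib. All of its counts were low, although both DMSO libraries lay above both imatinib libraries. The pooled ratio of DMSO to imatinib was 6.65, with an exact 95% interval of 0.922 to 292 that covers counting error only. DUSP5 did not pass the filter on low counts, and without that filter the edgeR adjusted p was 0.264.

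SPRY4, a Sprouty inhibitor of receptor-driven RAS activation, lies at chr5:142310427-142326455 on the minus strand (hg38). It had 24 and 64 read pairs in DMSO and 1 and 0 in imatinib, or 6.31 and 11.2 CPM against 0.201 and 0 CPM. The single imatinib pair stood far below the lower DMSO library, and the groups did not overlap. The pooled ratio was 65.0 (exact 95% interval 11.4 to 2598), and the fitted log2 fold change was −5.78 with a standard error of 0.81 (edgeR adjusted p = 0.00384). SPRY2, its paralogue, had 2 and 5 read pairs in DMSO and 1 and 2 in imatinib. Its groups overlapped at or near the limit of detection, with a ratio of 1.72 (exact 95% interval 0.394 to 10.3). SPRY2 was not tested because of the filter, and without it the edgeR adjusted p was 0.680.

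SPRED1, a Sprouty-related protein that recruits the RAS GTPase-activating protein neurofibromin to the membrane, had 14 and 27 read pairs in DMSO and 2 and 1 in imatinib. Its levels of 3.68 and 4.73 CPM in DMSO lay above the 0.403 and 0.405 CPM of the imatinib libraries. The pooled ratio was 10.1 (exact 95% interval 3.22 to 51.0) and the log2 fold change was −3.31 with a standard error of 0.63 (edgeR adjusted p = 0.0114). This call was lost with DESeq2 (adjusted p = 0.0620) and without DMSO replicate 2 (edgeR adjusted p = 0.118), while the direction was the same.

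ETV5, an ETS transcription factor of the PEA3 group, had 21 and 20 read pairs in DMSO and 0 in each imatinib library. The levels were 5.53 and 3.50 CPM in DMSO and 0 in imatinib, so the groups did not overlap. With 3 read pairs allowed over both imatinib libraries, ETV5 was at least 10.1-fold higher in DMSO (edgeR adjusted p = 0.00767). The exact 95% interval of the pooled ratio, which also covers the counting error of the DMSO libraries, began at 7.85. The fitted fold change of such a gene depends on the prior count.

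EGR1, an immediate-early zinc finger transcription factor, lies at chr5:138465479-138469303 on the plus strand and has 2 exons. It had 119 and 105 read pairs in DMSO and 4 and 0 in imatinib, or 31.3 and 18.4 CPM against 0.806 and 0 CPM. Both DMSO libraries were far above both imatinib libraries. The pooled ratio was 41.4 (exact 95% interval 15.9 to 153) and the log2 fold change was −5.48 with a standard error of 0.66 (edgeR adjusted p = 0.00236). Without imatinib replicate 1, which held all 4 imatinib pairs, the fitted log2 fold change was −9.61 and depended on the prior count.

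The EGR1 promoter is shown because the most used start of EGR1 in the read pairs lay 1 base after the RefSeq start, which places it directly upstream of the starts in use. The sequence covers chr5:138465229-138465488 (RefSeq, GRCh38.p14, plus strand), from 250 bases before the start to 10 bases after it. Capitals mark 2 CArG boxes, the sites of SRF, from −105 to −96 and from −83 to −74, and the EGR motif GCGNGGGCG from −198 to −190.
EGR1 promoter: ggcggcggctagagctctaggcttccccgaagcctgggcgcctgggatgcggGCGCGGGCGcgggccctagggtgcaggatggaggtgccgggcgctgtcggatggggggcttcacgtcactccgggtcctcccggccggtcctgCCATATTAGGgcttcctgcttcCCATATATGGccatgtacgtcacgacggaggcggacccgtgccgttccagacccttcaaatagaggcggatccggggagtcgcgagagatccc

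Motifs were searched on both strands in windows from 250 bases before to 50 bases after each RefSeq start, where 6 of the 10 genes had 8 entries. A CArG box was present in 1.30% of 34943 such windows, and among the 6 genes searched only in that of EGR1. The EGR motif was present in 9.41% of windows, and in those of EGR1, SPRY4 and SPRY2. The cyclic AMP response element TGACGTCA, the AP-1 motif TGANTCA and the ETS motif CCGGAAG were in 1.84%, 7.72% and 10.2% of windows and in none of the 8. The motifs did not overlap each other in these windows. The RefSeq window of SPRY4 lay downstream of the start that the read pairs used, 772 bases away. DUSP4, DUSP5, ETV5 and IER3 had no entry.

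IER3, an immediate-early regulator of apoptosis that is a substrate of ERK, lies at chr6:30743199-30744548 on the minus strand. It had 331 and 479 read pairs in DMSO and 102 and 78 in imatinib. The levels were 87.1 and 83.9 CPM in DMSO against 20.5 and 31.6 CPM in imatinib, a mean of 85.5 ± 2.26 CPM against 26.1 ± 7.80 CPM (SD, n = 2 libraries each). The groups did not overlap, and IER3 was the gene with the most read pairs of the 10 and the one that stayed well above the floor after imatinib. Its log2 fold change was −1.73 with a standard error of 0.31 (edgeR adjusted p = 0.00939), and the pooled ratio was 3.33 (exact 95% interval 2.83 to 3.93).

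PHLDA1, a pleckstrin homology-like protein induced by ERK, had 4 and 15 read pairs in DMSO and 1 and 0 in imatinib. Its levels of 1.05 and 2.63 CPM in DMSO lay above the 0.201 and 0 CPM of the imatinib libraries, with a pooled ratio of 14.0 (exact 95% interval 2.23 to 583). PHLDA1 passed the filter level in 1 library only and was not tested. Without the filter, the log2 fold change was −3.67 (edgeR adjusted p = 0.0189).

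**Figure D2:**
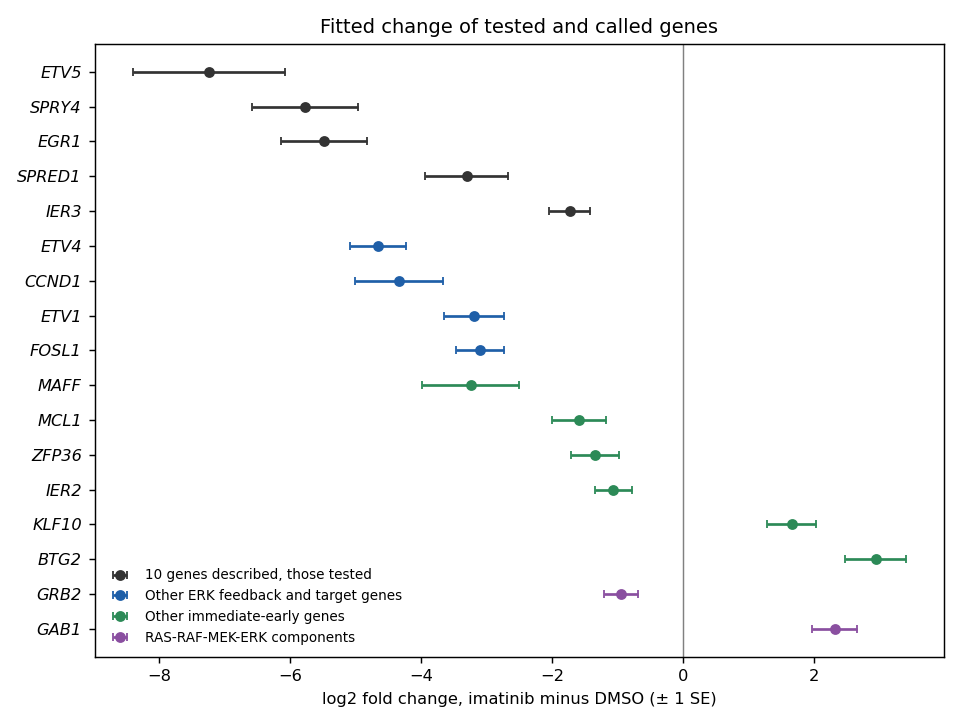
Fitted log2 fold change, imatinib minus DMSO, with bars of 1 standard error, for the tested genes among the 10 (black) and for the genes called in 3 further lists (other ERK targets blue, other immediate-early genes green, pathway components purple). The 5 black points lie between −7.24 and −1.73, and the value of ETV5 depends on the prior count because it had 0 read pairs after imatinib.

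Because both ends of each molecule were read, the starts and ends of the 8 detected genes could be described. For all of them but IER3, too few read pairs remained in imatinib to compare isoform shares between the conditions. Across all tested genes, the median share of read pairs that started within 500 bp of an annotated start was 85.3%, with quartiles of 60.0% and 94.9%. IER3 at 97.0% was above the upper quartile. PHLDA1 at 90.0%, SPRY2 at 80.0% and EGR1 at 72.8% lay between the quartiles. SPRY4 at 57.3%, DUSP5 at 40.0%, ETV5 at 19.5% and SPRED1 at 9.09% lay below the lower quartile, and much of what remained started inside the last exon. In ETV5, 68.3% of pairs started elsewhere in the last exon, and in SPRED1 56.8%. The counts that started at an annotated start had the same direction as the whole counts for each gene above 10 such pairs. They were 319 and 468 pairs in DMSO against 98 and 75 in imatinib for IER3, 14 and 37 pairs in DMSO against 0 and 0 in imatinib for SPRY4, 84 and 78 against 4 and 0 for EGR1, and 4 and 13 against 1 and 0 for PHLDA1. For ETV5 they were 7 and 1 against 0 and 0, and for SPRED1 2 and 2 against 0 and 0, too few to pass the filter.

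**Figure D3:**
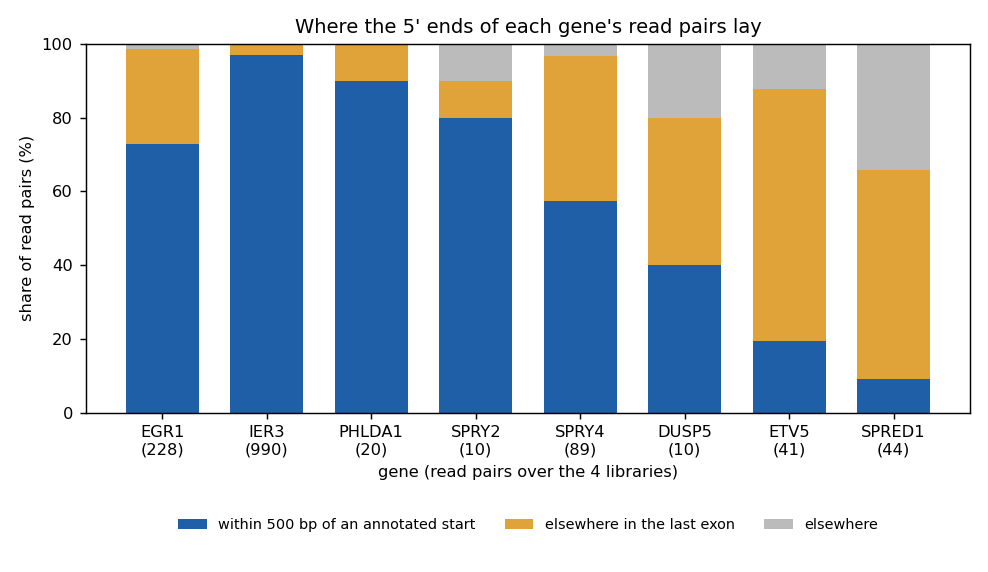
Share of each gene's read pairs by the position of the 5′ end, pooled over the 4 libraries, with the number of read pairs in brackets. Blue is within 500 bp of an annotated start, yellow elsewhere in the last exon and grey elsewhere, and the blue share falls from 97.0% in IER3 to 9.09% in SPRED1.

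The start windows of 4 genes are shown because most of their pairs began at or near an annotated start. Each runs from 20 bases before to 10 bases from the most used 5′ end (hg38), at chr5:138465460-138465489 (plus strand) for EGR1, chr6:30744538-30744567 (minus) for IER3, chr5:142325010-142325039 (minus) for SPRY4 and chr12:76031589-76031618 (minus) for PHLDA1. Capitals mark the last base before and the first base of the transcript.
EGR1 start: ggcggatccggggagtcgcGAgagatccca
IER3 start: tctgccggcagccgaccctCActtggcctt
SPRY4 start: ttttcccaggcagtggttgCAacatcgccg
PHLDA1 start: cgccgcgagggggcccggcCAgtgcccttc

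IER3, SPRY4 and PHLDA1 had the dinucleotide CA at these positions, as did 42.9% of the 15498 starts of transcript isoforms (TIFs) over all genes, and EGR1 had GA. The EGR1 start window held 81 and 73 pairs in DMSO and 4 and 0 in imatinib, 69.3% of the pairs of the gene. The SPRY4 start was 2 bases inside the annotated start of its canonical transcript, in the 5′ UTR of exon 1. It held 9 and 15 pairs in DMSO and 0 in both imatinib libraries, and a second start 34 bases upstream of the annotated one held 3 and 13 against 0 and 0. The PHLDA1 start, 178 bases into the gene body and 6 bases inside the start of a shorter annotated transcript, held 1 and 7 pairs against 0 and 0.

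The poly(A) sites were also specific positions. The windows below are the 30 bases up to the most used 3′ end of each gene (hg38), all in the 3′ UTR of the last exon, and are shown because they are where the molecules of each gene most often ended. They lie at chr5:138469273-138469302 (plus strand) for EGR1, chr6:30743200-30743229 (minus) for IER3, chr5:142310436-142310465 (minus) for SPRY4, chr3:186046319-186046348 (minus) for ETV5, chr15:38354020-38354049 (plus) for SPRED1 and chr12:76029569-76029598 (minus) for PHLDA1. Capitals mark the hexamer nearest to the end that has the letters of a poly(A) signal, AATAAA or ATTAAA. In EGR1 the marked AATAAA began 7 bases before the end, and an ATTAAA further upstream in that window is not marked. Which of them acts as the signal was not tested.
EGR1 end: ccttccaaaaaattaaaacgaaAATAAAgt
IER3 end: gaacacaAATAAAattgatttactgtctgc
SPRY4 end: tataaatatatattgttaaatatacacggg
ETV5 end: tacAATAAAgaagtttgcttttcgtttacc
SPRED1 end: caagtttcttcATTAAAaactatggtgatg
PHLDA1 end: ccagctggttgaaATTAAAactctgatatt

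One of these hexamers was in the same window of 61.2% of 19408 TIF ends over all genes, and SPRY4 had neither. The EGR1 end, 1 base before the annotated one, held 91 and 57 pairs in DMSO and 0 in both imatinib libraries. The SPRY4 end, 9 bases before the end of the gene body, held 16 and 51 pairs in DMSO and 1 and 0 in imatinib, 76.4% of its pairs. The ETV5 end, 5 bases before the annotated one, held 14 and 16 pairs in DMSO and none in imatinib. A short ETV5 form, ending 48807 bases before the end of the gene body in an intron of the canonical transcript and 1 base from another annotated end, held 3 and 1 pairs in DMSO and none in imatinib.

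Most SPRED1 and PHLDA1 pairs ended away from the annotated ends. Of the 44 SPRED1 pairs, 0 ended within 200 bp of an annotated end, and the most used end, 3200 bases upstream of it in the last exon, held 8 and 12 pairs in DMSO and 0 in both imatinib libraries. A second SPRED1 end, 4710 bases upstream, held 1 and 3 pairs against 1 and 0, and had 7 A in the 10 genomic bases downstream, the level from which the authors' filter treats an end as possible internal priming. Of the 20 PHLDA1 pairs, 90.0% ended elsewhere, most often 4122 bases upstream of the annotated end, where there were 2 and 5 pairs in DMSO and 1 and 0 in imatinib.

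In the rebuilt catalogue of TIFs, linked TSS and PAS clusters with at least 4 read pairs, EGR1 had 2 TIFs and IER3 had 1, and the other 8 genes had none. The full-length EGR1 TIF, from 138465480 to 138469302 on chromosome 5, had 50 and 35 read pairs in DMSO and 0 in both imatinib libraries (edgeR adjusted p = 0.00595). With 0 pairs in imatinib, this TIF could pass the filter on low counts only if it was higher in DMSO, so its call is a description. The second, ending at 138469242, 61 bases before the annotated end, had 7 and 5 pairs in DMSO and 0 in imatinib, and was too low to test. The IER3 TIF, from 30744547 to 30743200 on chromosome 6, had 277 and 384 pairs in DMSO and 79 and 62 in imatinib, and its log2 fold change was −1.63 with a standard error of 0.34 (edgeR adjusted p = 0.0164). Of 16020 TIFs tested, 11.1% were called, 4.73% as lower and 6.38% as higher. A shift between isoforms of 1 gene could not be tested for any of the 10, since none had more than 1 tested TIF. In other genes 1.70% of 14232 TIFs were called in usage, 1.03% as lower and 0.668% as higher.

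Within IER3, starts that differed by a few bases could be followed in both conditions, since enough pairs remained. The start at the annotated position held 284 and 414 pairs in DMSO and 84 and 65 in imatinib. Starts over 25 and up to 100 bases into the gene held 17 and 20 pairs in DMSO and 0 and 1 in imatinib, 4.66% ± 0.679 against 0.641% ± 0.907 of the gene's pairs (SD, n = 2 libraries each). Starts over 200 and up to 300 bases into it held 8 and 7 pairs in DMSO and 9 and 3 in imatinib, 1.94% ± 0.676 against 6.33% ± 3.52 of the pairs. These shares did not overlap between the conditions and moved in opposite directions. In CPM the inner starts were at 2.10 and 1.23 in DMSO and 1.81 and 1.21 in imatinib, where the groups overlapped. Shares of other start bins separated as well. They were lower in imatinib from 10 bases before to 25 bases after the annotated start. They were higher over 100 and up to 200 bases, and over 300 and up to 600 bases, into the gene. In the remaining bins the shares overlapped. The separation of the 25 to 100 and the 200 to 300 base bins is therefore a description only. Both bins were chosen after their values had been seen, and the exact two-sided permutation test gave 0.333 for each, the smallest p that 2 against 2 libraries allow.

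Of the 14 other genes within 1000 bp of the 10, 7 had no read pairs and 5 were tested. SPRY4-AS1, a lncRNA on the opposite strand of SPRY4, had 21 and 21 read pairs in DMSO and 0 and 3 in imatinib, with a log2 fold change of −3.34 and a standard error of 0.90 (edgeR adjusted p = 0.0388). Both imatinib libraries lay below both DMSO libraries, as for SPRY4. SPRY4-AS1 was under the filter level in both imatinib libraries and could pass only if it was higher in DMSO. The separation and the call of SPRY4-AS1 are therefore a description only. Its call was lost without DMSO replicate 1 (edgeR adjusted p = 0.0606) and without imatinib replicate 1 (log2 fold change −1.85, edgeR adjusted p = 0.113), and without imatinib replicate 2 the log2 fold change was −7.46 and depended on the prior count. Opposite-strand pairs that started within 500 bp of the main SPRY4 start numbered 17 and 14 in DMSO and 0 and 2 in imatinib, most often 274 bases upstream of it.

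PHLDA1-DT, the lncRNA annotated divergently from PHLDA1, went the other way. It had 0 read pairs in both DMSO libraries and 39 and 10 in imatinib. With 3 pairs allowed over both DMSO libraries, it was at least 22.1-fold higher after imatinib (edgeR adjusted p = 0.00491). PHLDA1-DT reached the filter level in the imatinib libraries only and could pass only if it was higher there, so its call is a description. Pairs on that strand that started within 500 bp of the main PHLDA1 start numbered 0 and 0 in DMSO and 37 and 9 in imatinib, most often at chr12 position 76031813, 215 bases upstream of the PHLDA1 start. At IER3, the same-strand neighbour FLOT1 had 57 and 106 pairs in DMSO and 68 and 22 in imatinib (log2 fold change −0.54, edgeR adjusted p = 0.319). The opposite-strand IER3-AS1 had 32 and 38 against 54 and 30 (log2 fold change 0.61, edgeR adjusted p = 0.264). HCG20 had 31 and 38 against 45 and 26 (log2 fold change 0.40, edgeR adjusted p = 0.481). The annotated body of HCG20 begins shortly after that of IER3-AS1 ends, on the same strand. Both can count the same pairs through the margin around each gene body that the counting allows. The differences were not past the threshold for these 3 genes.

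**Figure D4:**
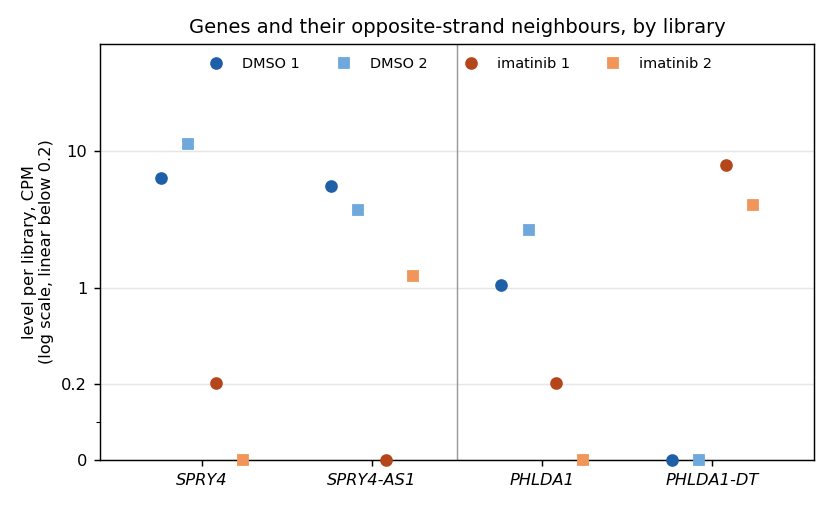
Level of SPRY4 and PHLDA1 and of their opposite-strand neighbours in each library, in CPM on an axis that is logarithmic above 0.2 and linear below, with blue for DMSO and orange for imatinib and with circles and squares for replicates 1 and 2. SPRY4, SPRY4-AS1 and PHLDA1 are higher in DMSO, while PHLDA1-DT is at 0 in both DMSO libraries and detected in both imatinib libraries.

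Of 20 other ERK feedback and target genes, 2 had no read pairs and 11 were tested. By edgeR's quasi-likelihood test 4 were lower after imatinib and 0 higher, against 6.15% and 8.69% over all genes. At an unadjusted p under 0.05 there were 7 lower and 0 higher, against 1702 and 2081 of 12135 over all genes tested. DESeq2 called 4 lower and 0 higher, against 734 and 692 of 13270 over all genes. The median log2 fold change of the 11 tested genes of the list was −1.41, against 0.03 over all tested genes. ETV1, ETV4, CCND1 and ERF stayed under the filter level in both imatinib libraries and could pass only if they were higher in DMSO. DUSP1 reached that level in the imatinib libraries only and could pass only if it was higher there. These counts and the median therefore describe the list and are not evidence about it. ETV4, a PEA3 paralogue of ETV5, had 155 and 228 read pairs in DMSO and 10 and 2 in imatinib (log2 fold change −4.66, edgeR adjusted p = 0.00114). ETV1, the remaining PEA3 factor, had 42 and 66 against 6 and 3 (log2 fold change −3.19, edgeR adjusted p = 0.00407). FOSL1, an AP-1 subunit, had 217 and 532 against 49 and 18 (log2 fold change −3.10, edgeR adjusted p = 0.00236). CCND1, the cyclin that drives entry into S phase, had 22 and 65 against 2 and 1 (log2 fold change −4.34, edgeR adjusted p = 0.00516).

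Of 33 other immediate-early genes, 7 had no read pairs and 16 were tested, and 4 were lower and 2 higher, against 6.15% and 8.69% over all genes. DESeq2 called 3 lower and 1 higher, against 734 and 692 of 13270 over all genes. MAFF was under the filter level in both imatinib libraries. The median log2 fold change of 0.08 was near that of all genes. MAFF, a small MAF transcription factor, had 21 and 67 pairs in DMSO and 7 and 0 in imatinib (log2 fold change −3.25, edgeR adjusted p = 0.0220). MCL1, an anti-apoptotic BCL2 family protein, had 59 and 109 against 20 and 20 (log2 fold change −1.59, edgeR adjusted p = 0.0332). IER2 had a log2 fold change of −1.07 and ZFP36, an mRNA decay factor, of −1.35 (edgeR adjusted p = 0.0374 and 0.0382). BTG2, an antiproliferative gene, had 11 and 15 pairs in DMSO and 140 and 33 in imatinib (log2 fold change 2.94, edgeR adjusted p = 0.00540), and KLF10 had 13 and 28 against 70 and 31 (log2 fold change 1.66, edgeR adjusted p = 0.0205). The calls of IER2, MCL1, ZFP36, MAFF and KLF10 were each lost when DMSO replicate 2 was left out, with edgeR adjusted p of 0.0910, 0.129, 0.274, 0.0761 and 0.0545. Leaving out DMSO replicate 1 also ended the calls of IER2, ZFP36 and KLF10 (edgeR adjusted p = 0.293, 0.0683 and 0.143), and leaving out imatinib replicate 1 that of MCL1 (edgeR adjusted p = 0.0718). Without imatinib replicate 1 the log2 fold change of MAFF was −8.15, which depended on the prior count, and that of IER2 was −0.30, not past the threshold, when only 5′ ends near an annotated start were counted.

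Of 28 RAS, RAF, MEK and ERK components, 26 were tested, 1 was lower, 1 higher and 24 not called, with a median log2 fold change of −0.07. Over all genes tested, 6.15% were lower and 8.69% higher. GRB2, the adaptor that binds phosphorylated BCR-ABL1, had 966 and 1646 pairs in DMSO and 604 and 394 in imatinib (log2 fold change −0.95, edgeR adjusted p = 0.0430). GAB1, a docking protein of receptor tyrosine kinases, had 36 and 38 pairs in DMSO and 220 and 86 in imatinib (log2 fold change 2.31, edgeR adjusted p = 0.00476). The groups did not overlap for either gene in CPM. The share of all genes that separate in this way is not given here, so the separation is a description only. The GRB2 call was lost when any library but imatinib replicate 2 was left out.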

How the data were processed

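TIF-Seq2 read pairs of the 2 DMSO and 2 imatinib libraries were analysed. The deposited tables hold raw counts of read pairs per 5′ and 3′ end position, which the authors obtained by trimming with cutadapt 1.16, aligning to hg38 with STAR 2.5.3a, keeping uniquely mapped pairs on 1 chromosome and removing PCR duplicates by UMI. Pairs between 2 chromosomes, such as those of the BCR-ABL1 fusion, were therefore not analysed here. The 3′T-fill samples and the long-read models were not used.

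Counts were summed per Gencode v44 gene within 1000 bp of the body, and a pair could count for several genes. TIFs were rebuilt with the limits of the study's methods: 3′ ends with 7 or more A in the next 10 bases left out, tags with at least 1 normalized count in 2 libraries joined within 10 bp, and at least 4 pairs per TIF. Conditions were compared with edgeR 4.0.16 (quasi-likelihood, robust, TMM, filterByExpr) in R 4.3.3, with Benjamini-Hochberg adjustment over all features. Standard errors were derived from the F statistic. On simulated data, 87.1% of 4-fold and 96.7% of 8-fold changes were called per gene, and 64.8% and 85.9% per TIF. Alternatives were DESeq2 1.42.0, other scaling, filters and pair rules, a replicate term and leaving out each library.

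The 10 genes and the lists were chosen with earlier results of these data known. The text names all 10, their TIFs, tested neighbours and up to 8 called genes per list. The genes most like DUSP6 could not be named, since DUSP6 had no read pairs. Exact intervals and floors cover counting error only.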

Additional observations from a re-analysis of the deposited data

How the results depend on the processing

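The counts of calls depended on the setting more than the fold changes did. All of the fold changes of named genes and TIFs kept their direction in the alternatives that gave a value. Leaving out 1 library gave 4 to 5 of the 10 genes called lower and 0 higher, 1 to 2 of their TIFs lower and 0 higher, and 0 calls of TIF usage. With 5′ ends within 500 bp of an annotated start 3 of the 10 were called lower (SPRED1 and ETV5 left the tested genes), and without a filter on low counts 6. The IER3 TIF lost its call without either DMSO library (edgeR adjusted p = 0.0650 and 0.0605). SPRY4-AS1 lost its call in 5 alternatives, with adjusted p up to 0.113, and IER3-AS1 gained one with pairs of 1 gene only (log2 fold change 2.02, edgeR adjusted p = 0.0352). Over all genes, 746 were lower and 1054 higher. Without a filter 1322 were lower, with DESeq2 692 were higher, and the share of calls that were lower was 41.4% and 51.5% with DESeq2. Leaving out 1 library gave 323 to 1845 lower and 497 to 2141 higher. For TIFs, 757 lower and 1022 higher became 1513 and 1593 without a filter, 675 higher with DESeq2, and 283 to 1726 lower and 430 to 1871 higher with 1 library left out. TIF usage calls became 97 lower without a filter, and 1 to 115 lower and 0 to 119 higher with 1 library left out.

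For the other ERK feedback and target genes, leaving out 1 library gave 4 to 7 lower and 0 to 1 higher. For the other immediate-early genes it gave 0 to 4 lower and 1 to 3 higher, with 1 lower for 5′ ends near an annotated start and 1 higher by DESeq2. For the components it gave 0 to 2 lower and 1 to 2 higher, with 2 lower without a filter or with the A-content and distance filters and 0 higher for 5′ ends near an annotated start.

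The labels number the replicates 1 and 2 in both conditions without saying that a number marks a shared culture, and the deviations of same-numbered libraries correlated at −0.24. With the replicate number as a block, 413 genes were lower and 735 higher, 425 TIFs were lower and 681 higher, and 37 and 29 TIFs were lower and higher in usage. The block left 2 other immediate-early genes and 0 components lower, and 5 of the 10 genes lower. The crossed pairing, added after seeing the data, gave 1790 genes lower and 1933 higher, 1731 and 1863 TIFs, 231 and 161 TIFs in usage, and 8 other ERK feedback and target genes and 2 components lower.

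With 2 libraries per condition and a floor of 0.525 to 1.21 CPM, genes near 1 CPM could not be compared.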

Other observations

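Several classical ERK targets outside the rule for named genes were looked up after the other values had been seen. FOS had 4 and 5 read pairs in DMSO and 1 and 0 in imatinib, and JUN had 4 and 1 against 3 and 3, so neither was tested. MYC had 675 and 791 read pairs in DMSO and 361 and 280 in imatinib, with a log2 fold change of −0.77 and a standard error of 0.31 (edgeR adjusted p = 0.123). Apart from the fit with crossed replicate numbers, its call appeared only without a filter on low counts (edgeR adjusted p = 0.0445) and without imatinib replicate 2 (edgeR adjusted p = 0.00225). DUSP1, a stress-induced phosphatase of several MAP kinases, had 9 and 4 pairs in DMSO and 17 and 6 in imatinib (log2 fold change 1.08, edgeR adjusted p = 0.277). It reached the filter level in the imatinib libraries only, so it could pass only if it was higher there.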
